A study of Rattus norvegicus with 4 samples.

Results

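The family of miR-148 and miR-152 in the rat consists here of 3 miRNA genes, Mir148a, Mir148b and Mir152, out of 262 named miRNA genes that had a count in these data. Its members were chosen by name alone. Every distinct read sequence (tag) that the deposited tag files place on the precursor hairpins rno-mir-148a, rno-mir-148b or rno-mir-152 was taken, and its reads were summed by member, by arm of the hairpin and by tag length. The small RNA came from exosomes, vesicles of endosomal origin that cells shed into their medium. The group Exo-AT holds exosomes shed by minced adipose tissue of SD rats aged 4 weeks, kept as explants in a spinner flask for 3 days. The group Exo-ADSCs holds exosomes of adipose stem cells at passage 3, kept in serum-free medium for 3 days. Both groups were kept in α-MEM with penicillin and streptomycin, and the labels name no other agent or genotype. Each group has 2 libraries, called Exo-ADSCs1 and Exo-ADSCs2, Exo-AT1 and Exo-AT2 after their replicate numbers, and tag counts were used for 3 of the 4. Exo-ADSCs1 has values only in the authors' deposited table. Nothing in the labels says that replicates came from separate animals or cultures, or whether tissue was pooled, so each p-value is set against a sample spread that may be technical in origin.

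A miRNA hairpin yields a product from each of its arms, 5p and 3p, and the product that is loaded into Argonaute pairs with messages mainly through its seed, the bases that follow its first base. The 3p products of miR-148a, miR-148b and miR-152 share a seed and are known to repress DNMT1, the maintenance DNA methyltransferase. miR-148a is also known to act on the LDL receptor message, and in adipose progenitors it is known to promote adipocyte differentiation through repression of Wnt1. The 5p products have other seeds and are usually the minor arm.

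The mature 3p sequences are shown because the family is defined by what they share and the tags can be told apart only where they differ. They are from RefSeq, assembly GRCr8, with the seed (bases 2 to 8) in capitals.
miR-148a-3p: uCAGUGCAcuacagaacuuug
miR-148b-3p: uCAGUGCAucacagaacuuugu
miR-152-3p: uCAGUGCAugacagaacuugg
On GRCr8, miR-148a-3p lies at chr4:81664447-81664467 on the minus strand, miR-148b-3p at chr7:136299930-136299951 on the plus strand and miR-152-3p at chr10:82329435-82329455 on the plus strand. In the RefSeq annotation Mir148b lies within the gene Copz1 and Mir152 within its paralog Copz2, which encode subunits of the COPI vesicle coat, while Mir148a lies within no annotated gene. The seed CAGUGCA occurred in 3 of the 724 rat mature sequences of the RefSeq table, and these were the 3 family members. With positions counted from 1 at the 5′ end, miR-148b-3p differs from miR-148a-3p by C9U and U10C over the 21 bases compared. miR-152-3p differs from miR-148a-3p by C9U, U10G and U20G. It differs from miR-148b-3p by C10G and U20G, of which the first remains within an 18 nt tag. Tags that the files place on more than 1 member or on another miRNA made up 6 of 699 family counts in Exo-ADSCs2, 0 of 130 in Exo-AT1 and 6 of 1480 in Exo-AT2, so the members were counted apart from one another.

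Depth differed widely between the libraries. Counts on named hairpins were 97204 in Exo-ADSCs2, 9134 in Exo-AT1 and 136024 in Exo-AT2, and the family took 0.719%, 1.42% and 1.09% of them. Of all assigned counts, 86.4%, 39.9% and 24.9% in the same order fell on hairpins that the authors predicted. Tags of 19 nt or less made up 55.1% of named counts in Exo-ADSCs2 but 19.2% and 15.5% in the Exo-AT libraries, a gap between the groups that runs through the values below. Both Exo-AT tag files hold 1 shared sample name, so whether they are separate samples or repeat runs of 1 sample is not known, and every SD, SE and p-value below rests on the spread between them. Moreover, the authors' deposited table goes against the file labels: its column headed Exo-AT1 follows the tag counts of the file labelled Exo-AT2, with 37 of 45 listed miRNAs within 10% of a constant ratio, and its column headed Exo-AT2 follows the commonest tag of the file labelled Exo-AT1 in 29 of 45. Replicate numbers below are those of the file labels. The lists used here hold no miRNA that defines adipose stem cells or adipose tissue, so the source labels were not checked that way.

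With all tags counted, miR-148a-3p was the most abundant member in all 3 libraries, in Exo-ADSCs2 by a margin within counting error. None of the family's tested forms passed the test between tissue and stem cell exosomes with all tags counted under the TMM scaling described next. miR-148a-3p had 340 counts in Exo-ADSCs2, 85 in Exo-AT1 and 865 in Exo-AT2. In CPM, the counts scaled to 1 common total of named-miRNA counts with edgeR's TMM factors, which set most miRNAs level between libraries, this was 5299, 6719 and 5884 CPM, which ranked it at 18, 14 and 16 among 348 mature miRNAs. Both Exo-AT values lay slightly above the Exo-ADSCs value, at a mean of 6301 ± 590 CPM (SD, n = 2). Its log2 fold change, Exo-AT over Exo-ADSCs, was 0.24 (SE 0.34, adjusted p = 0.599, quasi-likelihood test in edgeR, Benjamini-Hochberg adjusted over all 183 miRNAs tested).

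miR-152-3p, whose precursor lies within Copz2, had 303, 36 and 469 counts in the same order of libraries, or 4722, 2846 and 3190 CPM. Here both Exo-AT libraries lay below Exo-ADSCs2, at a mean of 3018 ± 244 CPM (SD, n = 2). The log2 fold change was -0.63 (SE 0.36, adjusted p = 0.165, edgeR). In Exo-ADSCs2 the miR-152-3p level stood next to that of miR-148a-3p in rank (19 and 18), whereas in the Exo-AT libraries it ranked at 26 and 23.

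miR-148b-3p, the sister copy within Copz1, was an order of magnitude scarcer, with 23, 5 and 70 counts, or 358, 395 and 476 CPM. The Exo-AT values lay above the Exo-ADSCs value by less than a count of 5 can resolve, and the log2 fold change was 0.32 (SE 0.92, adjusted p = 0.811, edgeR). The 5p side of the miR-148a hairpin, tested as miR-148a-5p, had 18, 4 and 76 counts, or 281, 316 and 517 CPM, with a log2 fold change of 0.66 (SE 0.96, adjusted p = 0.612, edgeR). In Exo-ADSCs2 7 of its 18 counts, or 109 CPM, were the opposite-arm product itself, so these values are not those of the product alone, which was not tested apart. By edgeR's test 0 of these 4 tested forms were called at an adjusted p under 0.05, against 38.3% of the 183 miRNAs tested (19.1% higher and 19.1% lower in Exo-AT). In all 4 the groups did not overlap, 3 with Exo-AT above and miR-152-3p with Exo-AT below. With 1 library against 2 the same held for 77% of the 183 miRNAs tested, 39.3% with Exo-AT above and 37.7% with Exo-AT below, so it says little about the family. DESeq2's test and limma also called 0 of the 4, where they called 26.7% and 10.9% of the miRNAs they tested, and 0 had an unadjusted p under 0.05 in edgeR, against 45.4% of the 183. Without Exo-AT1, the shallowest library, the log2 fold changes were 0.15 for miR-148a-3p, -0.56 for miR-152-3p and 0.39 for miR-148b-3p, with no test possible for 1 library against 1. In order of level over all tags, miR-148a-3p came first and miR-152-3p next in every library. In Exo-ADSCs2 counting error does not resolve that order, since the interval of their ratio (0.761 to 1.04) includes 1. miR-148b-3p and the 5p side of miR-148a followed with like counts. In exosome RNA of a bulk preparation, fewer vesicles that carry a miRNA and fewer copies per vesicle cannot be told apart.

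**Figure D1:**
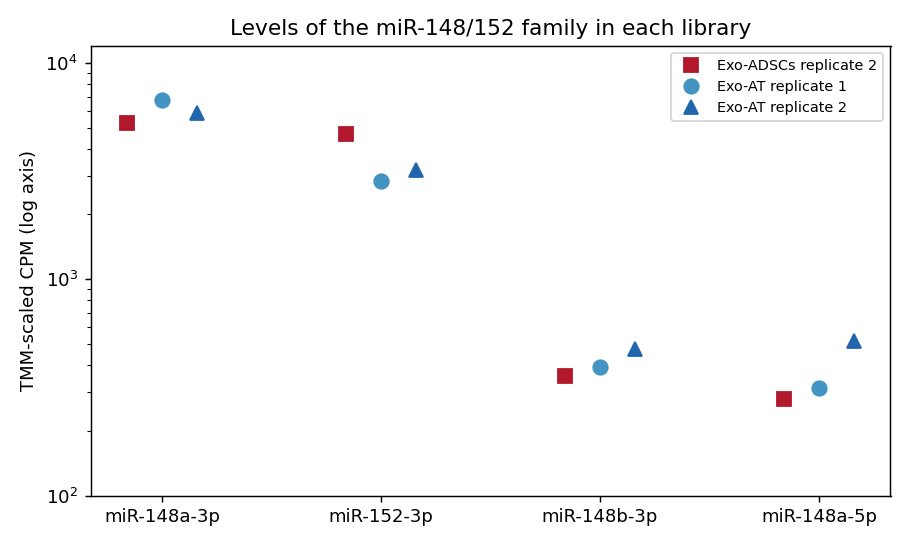
TMM-scaled CPM (log axis) of each tested family form (miR-148a-5p with all tags on that side of the hairpin), 1 point per library (red square Exo-ADSCs replicate 2, light blue circle Exo-AT replicate 1, dark blue triangle Exo-AT replicate 2). miR-148a-3p lies between 5299 and 6719 CPM in all 3 libraries, and miR-152-3p is the form whose Exo-AT points lie below the Exo-ADSCs point.

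The direction of miR-148a-3p and miR-152-3p depended on the scaling, and the scalings shifted all miRNAs together. The median log2 fold change over all miRNAs tested was 0.37 with TMM, 0.08 with DESeq2's size factors, 1.21 with totals of named counts and 3.55 with all assigned counts, predicted hairpins included. Relative to that median, miR-148a-3p stood at -0.13, -0.09, -0.07 and -0.11 under these 4 scalings, and miR-148b-3p at -0.06, -0.07, -0.07 and -0.05. miR-152-3p stood at -1.01, -1.0, -0.98 and -0.99. In these 4 scalings of all tags, miR-148a-3p and miR-148b-3p thus lay near the median of miRNAs and miR-152-3p about 1 log2 unit under it. These positions moved with the set of miRNAs and tags. Without Exo-AT2 miR-148a-3p stood at 0.76, miR-148b-3p at 0.53 and miR-152-3p at -0.30 from the median, and with no filter at 0.64, 0.72 and -0.24. With tags of 20 to 25 nt miR-152-3p stood above the median, at 1.39. On the absolute scale the log2 fold change of miR-152-3p was called at -0.91 with DESeq2's size factors (adjusted p = 0.0442, edgeR) and turned to 0.23 with totals of named counts (adjusted p = 0.68), where miR-148a-3p was called at 1.14 (adjusted p = 0.0231). The first of these scalings called 16.4% of all miRNAs tested lower and the other called 25.1% higher. With TMM but tags without mismatch alone, miR-152-3p was called at -0.94 (adjusted p = 0.00864, edgeR), where 19.5% of 154 miRNAs tested were called lower. Tags without mismatch are 90.8% of miR-152-3p counts in Exo-ADSCs2 but 72.2% and 71.0% in Exo-AT1 and Exo-AT2, so this filter itself takes more miR-152-3p counts from Exo-AT, while for miR-148a-3p it keeps 86.5%, 90.6% and 91.1%. With all assigned counts, a scaling added after seeing the data, all 4 tested forms were called higher in Exo-AT, with log2 fold changes of 3.44 for miR-148a-3p, 2.56 for miR-152-3p, 3.50 for miR-148b-3p and 3.85 for miR-148a-5p. Under that scaling 59.6% of all miRNAs tested were also called higher.

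**Figure D2:**
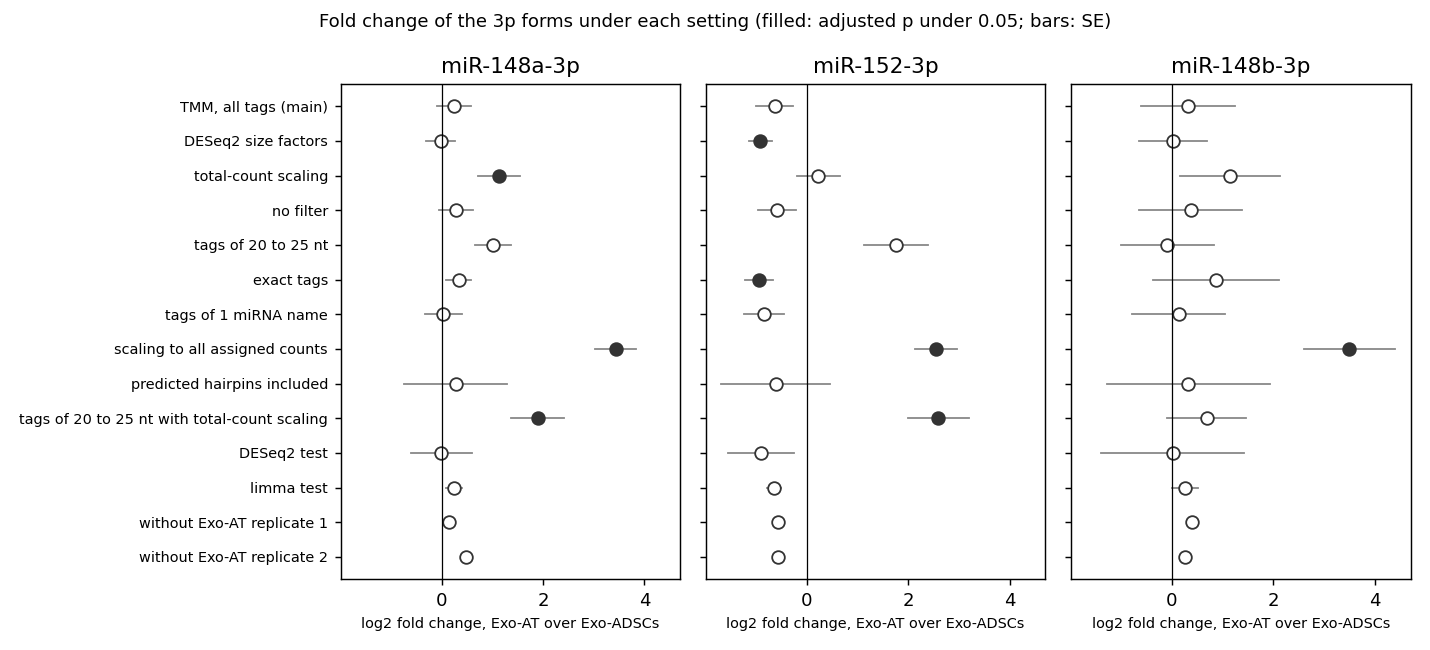
Log2 fold change (Exo-AT over Exo-ADSCs) of the 3p forms under the main fit and each alternative, with bars for the SE and filled points for an adjusted p under 0.05; the fits without 1 Exo-AT library have no test and no bar. miR-152-3p moves from -0.63 with all tags to 1.76 when tags of 20 to 25 nt alone are counted.

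Because the ratio of 2 members within a library needs no scaling, the balance of the family was read from it. Per count of miR-148a-3p there were 0.891 counts of miR-152-3p in Exo-ADSCs2 (exact 95% counting interval 0.761 to 1.04). In Exo-AT1 the ratio was 0.424 (0.279 to 0.632), and in Exo-AT2 it was 0.542 (0.484 to 0.607). Both Exo-AT ratios lay below the Exo-ADSCs ratio, with intervals that do not overlap it and that cover counting error only. Correspondingly, miR-152 took 44.6% of the family's counts in Exo-ADSCs2 (Wilson 95% interval 41.0 to 48.3) but 27.7% (20.7 to 35.9) and 31.7% (29.4 to 34.1) in the Exo-AT libraries. The share of miR-148a was 51.2%, 68.5% and 63.6% in the same order. miR-148b held a small and even share of 4.15%, 3.85% and 4.73%.

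The order of these ratios reversed when tags were counted within 1 length class. Among tags of 20 to 25 nt, the length range of mature miRNAs, the ratio of miR-152-3p to miR-148a-3p was 0.217 in Exo-ADSCs2 (23 to 106 counts, interval 0.132 to 0.343), 0.294 in Exo-AT1 (0.180 to 0.464) and 0.437 in Exo-AT2 (0.384 to 0.496). The Exo-ADSCs library was then the lowest, and its interval overlapped that of Exo-AT1 only. Its 106 miR-148a-3p counts include tags with the bases acg or gta in front, at 10, 7 and 4 counts. Such tags were seen in Exo-ADSCs2 only and made up 0 of 303 miR-152-3p counts, so they lower the ratio of that library. The ratio was not taken without them, so the gap to Exo-AT2 may depend on these tags. Among tags of 19 nt or less, miR-152-3p outnumbered miR-148a-3p by 280 to 225 in Exo-ADSCs2, by 11 to 0 in Exo-AT1 and by 116 to 57 in Exo-AT2. The ratio was 1.24 in Exo-ADSCs2 (1.04 to 1.49) and 2.04 in Exo-AT2 (1.47 to 2.85), with a lower limit of 2.51 in Exo-AT1. The Exo-ADSCs ratio was thus the lowest among short tags as well, with an interval that overlapped that of Exo-AT2. It was the highest only where short and long tags were counted together. The difference between the log2 fold changes of miR-152-3p and miR-148a-3p, -0.88 with all tags, was 0.75 with tags of 20 to 25 nt. In that fit the log2 fold change was 1.76 for miR-152-3p and 1.01 for miR-148a-3p, each at adjusted p = 0.0559 (edgeR), while 45.4% of 130 miRNAs tested were called. The lower value of miR-152-3p in Exo-AT, found with all tags, was thus not seen with tags of 20 to 25 nt. No fit was made to the short tags alone.

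**Figure D3:**
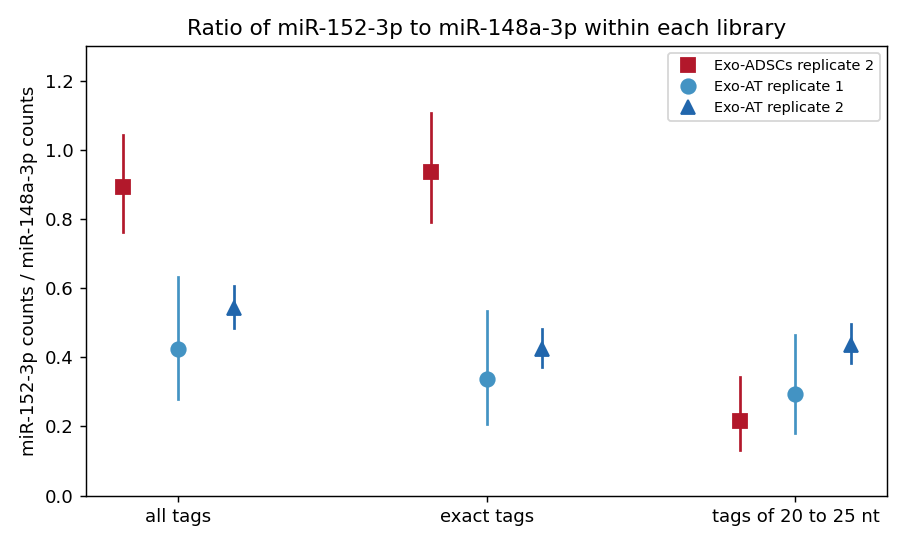
Ratio of miR-152-3p to miR-148a-3p counts within each library, from all tags, from tags without mismatch and from tags of 20 to 25 nt, with exact 95% counting intervals as bars. The Exo-ADSCs point is the highest with all tags (0.891) and the lowest with tags of 20 to 25 nt (0.217).

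The tags behind these values show where the members were cut short. The commonest long tag and the commonest short tag of each member are given as DNA letters as in the files, with the seed in capitals.
miR-148a-3p, 22 nt: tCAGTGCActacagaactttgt
miR-148a-3p, 18 nt: tCAGTGCActacagaact
miR-148b-3p, 22 nt: tCAGTGCAtcacagaactttgt
miR-148b-3p, 18 nt: tCAGTGCAtcacagaact
miR-152-3p, 21 nt: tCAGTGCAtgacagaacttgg
miR-152-3p, 18 nt: tCAGTGCAtgacagaact
The short tags keep the 5′ end and the whole seed and end after the stretch acagaact, which the members have in common. The long miR-148a tag is 1 base longer than the RefSeq entry printed above. Of miR-148a-3p counts, the 22 nt tag held 64 (18.8%) in Exo-ADSCs2, 52 (61.2%) in Exo-AT1 and 517 (59.8%) in Exo-AT2. Its 18 nt tag held 127 (37.4%), 0 and 21 (2.43%), so it was the leading miR-148a tag of the stem cell exosomes and rare or unseen in those of the tissue. For miR-152-3p the 21 nt tag held 16 counts (5.28%), 9 (25%) and 118 (25.2%). The 18 nt tag of miR-152-3p held 215 (71.0%), 9 (25%) and 52 (11.1%), and it was thus present in every library. For miR-148b-3p the 22 nt tag held 6, 3 and 47 counts and the 18 nt tag 5, 0 and 0.

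Summed over all tags of 19 nt or less, miR-152-3p was the shortest member in each library. Such tags made up 92.4% of its counts in Exo-ADSCs2 (Wilson 95% interval 88.9 to 94.9), 30.6% in Exo-AT1 (18 to 46.9) and 24.7% in Exo-AT2 (21 to 28.8). For miR-148a-3p the shares were 66.2% (61.0 to 71.0), 0 of 85 counts (upper bound 4.32), and 6.59% (5.12 to 8.44). miR-148b-3p had 26.1% in Exo-ADSCs2 (12.5 to 46.5, 23 counts) and no such tag among the 5 and 70 counts of the Exo-AT libraries. The mean tag length followed the same order, at 18.2, 20.4 and 20.7 nt for miR-152-3p, 19.7, 22 and 21.8 nt for miR-148a-3p and 22, 22.4 and 22.4 nt for miR-148b-3p. miR-148a-3p and miR-152-3p were thus shorter in the stem cell library, as were named miRNAs as a whole. miR-148b-3p was nearly equal in mean length but also had its only short tags there. Of its 23 counts in Exo-ADSCs2, 5 were tags of 25 nt with the bases acg in front, which raise its mean length in that library. The mean was not taken without them, so the near equality may depend on these tags.

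The shift of miR-148a-3p and miR-152-3p was set beside that of the 37 miRNAs with at least 20 counts in each library, whose depths differ widely and which do not include miR-148b-3p. In these 37, the share of tags of 19 nt or less in Exo-ADSCs2 exceeded the mean share of the Exo-AT libraries by a median of 6.18 percentage points. The excess was 64.8 points for miR-152-3p, with 2 miRNAs above it, and 62.9 points for miR-148a-3p, with 4 above it. In 20 of the 37 the stem cell share lay above both Exo-AT shares, so the shortening was not common to all miRNAs of that library. Within Exo-ADSCs2, 16 of 89 miRNAs with at least 20 counts had a higher share of short tags than miR-152-3p and 30 had a higher share than miR-148a-3p, with a median of 26.6%. The part that the excess of short tags in that library as a whole has in the family's lengths was not tested.

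**Figure D4:**
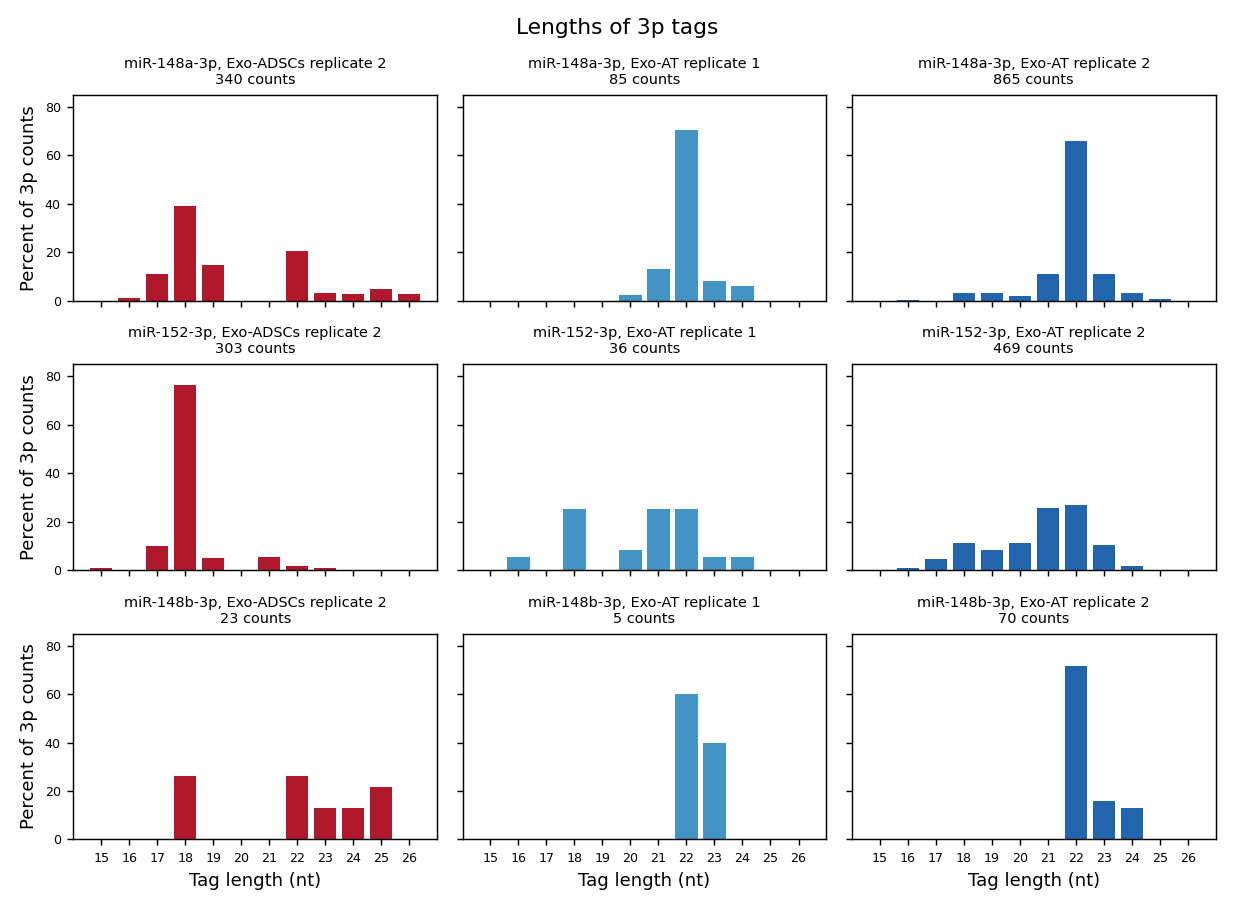
Percent of 3p counts by tag length in nt, for each member (rows) and library (columns), with the count total above each panel. In Exo-ADSCs replicate 2 the 18 nt bar leads for miR-148a-3p (39.1%) and miR-152-3p (76.6%), while in both Exo-AT libraries miR-148a-3p peaks at 22 nt.

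The 5′ end, which fixes the seed, was largely uniform. Tags that begin with the first base of the mature sequence made up 90.3%, 90.6% and 87.2% of miR-148a-3p counts in Exo-ADSCs2, Exo-AT1 and Exo-AT2, and 96.7%, 88.9% and 89.6% of miR-152-3p counts. For miR-148b-3p they were 18 of 23 counts in Exo-ADSCs2 (78.3%, Wilson 95% interval 58.1 to 90.3), 5 of 5 in Exo-AT1 and 67 of 70 in Exo-AT2. A start 1 base later, which moves the seed by 1 base, was the commonest shifted start of miR-148a-3p in the tissue libraries. It held 3 (0.882%), 6 (7.06%) and 71 (8.21%) counts for miR-148a-3p and 7 (2.31%), 2 (5.56%) and 35 (7.46%) for miR-152-3p, so both members had a higher share in each Exo-AT library than in the stem cell library. The commonest such tag, with the bases of the printed seed in capitals, is shown with a second kind of variant, a long tag with 3 extra bases in front.
miR-148a-3p, 1 base later: CAGTGCActacagaactttgt
miR-148a-3p, prefix acg: acgtCAGTGCActacagaactttgt
miR-148a-3p, prefix gta: gtatCAGTGCActacagaactttgt
miR-148b-3p, prefix acg: acgtCAGTGCAtcacagaactttgt
The later start had 6 counts in Exo-AT1 and 51 in Exo-AT2. The prefixed tags were seen in Exo-ADSCs2 only, where they made up 30 of 340 miR-148a-3p counts (8.82%, Wilson 95% interval 6.25 to 12.3) and 5 of 23 miR-148b-3p counts (21.7%, 9.66 to 41.9), against 0 of 303 miR-152-3p counts (upper bound 1.25%). The same prefixes were not particular to the family: among named miRNAs that also had a tag in Exo-AT they stood before 2468 of 96042 counts (2.57%) and in 45 of 160 miRNAs in that library, and before no count in either Exo-AT library. Their source was not tested.

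At the 3′ end the members differed in how often the last bases departed from the hairpin. Counted were tags of 20 to 25 nt whose only mismatches to the hairpin lie in their last 2 bases. How these letters arose was not tested. miR-152-3p had 5 of 23 counts (21.7%) in Exo-ADSCs2, 10 of 25 (40%) in Exo-AT1 and 131 of 353 (37.1%, Wilson 95% interval 32.2 to 42.3) in Exo-AT2. miR-148a-3p had 8 of 106 (7.55%), 5 of 85 (5.88%) and 49 of 808 (6.06%, 4.62 to 7.93). In each library the share was thus higher for miR-152-3p, with intervals that overlap in Exo-ADSCs2 (9.66 to 41.9 against 3.87 to 14.2) and lie far apart in Exo-AT2. miR-148b-3p had 6 of 17, 2 of 5 and 17 of 70 counts (24.3% in Exo-AT2, 15.8 to 35.5). In Exo-ADSCs2 the 106 miR-148a-3p counts include prefixed tags at 10, 7 and 4 counts, and the 17 miR-148b-3p counts include 5. Their bases in front keep these tags out of the share, while miR-152-3p had none. The shares were not taken without them and may be low for these members in that library.

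The mismatched letter, taken as the first mismatch within the last 2 bases, also differed between members. In Exo-AT2 it was A in 83 and T in 48 of the miR-152-3p counts, A in 37 and T in 12 of the miR-148a-3p counts, and T in all 17 of the miR-148b-3p counts, which had 0 with A. In Exo-AT1 it was A in all 10 miR-152-3p counts and all 5 miR-148a-3p counts, and T in both miR-148b-3p counts. In Exo-ADSCs2 it was A in 3 and T in 2 for miR-152-3p, A in 6 and T in 2 for miR-148a-3p, and T in all 6 for miR-148b-3p. Over all named miRNAs, with no limit on the start, A made up 8.13%, 26.2% and 45.9% of such ends in Exo-ADSCs2, Exo-AT1 and Exo-AT2. T made up 87.7%, 72.1% and 52.4%. The leading end variants of miR-152-3p and miR-148b-3p are shown with the seed in capitals, so that their last letters can be set against the tags above.
miR-152-3p, end a: tCAGTGCAtgacagaacttgga
miR-148b-3p, end t: tCAGTGCAtcacagaactttgtt
miR-148b-3p, end tt: tCAGTGCAtcacagaactttgttt
The miR-152 variant had 6 counts in Exo-AT1 and 60 in Exo-AT2, and the miR-148b variants had 8 and 9 counts in Exo-AT2. Over all miRNAs with at least 20 counts in this length range the median share of such ends was 3.39%, 2.08% and 5.06% in the 3 libraries, and over all counts of this length the share was 10.3%, 14.5% and 15.9%. miR-148a-3p thus lay above the median miRNA but below the share over all counts, and miR-152-3p lay above both. More such ends than in miR-152-3p were found in 5 of 63, 1 of 33 and 8 of 116 miRNAs, and more than in miR-148a-3p in 20 of 63, 13 of 33 and 56 of 116.

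**Figure D5:**
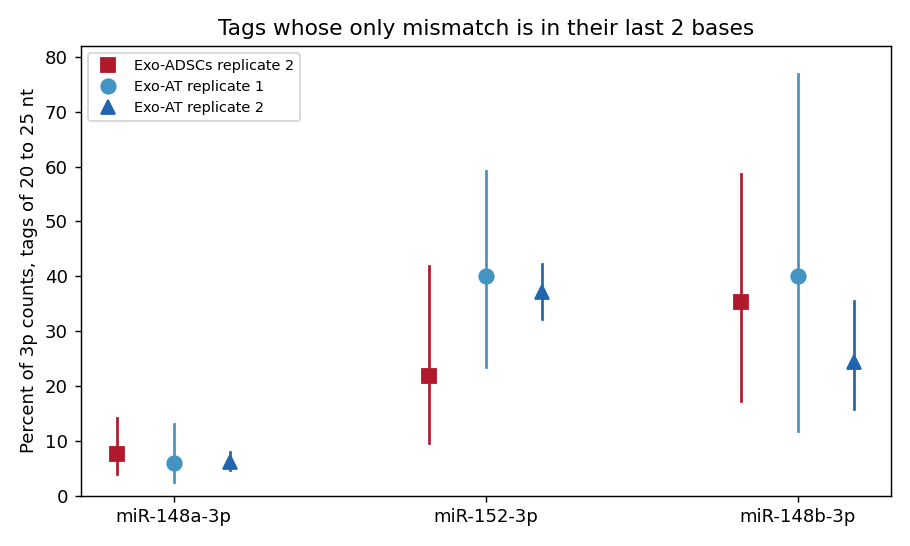
Percent of 3p counts in tags of 20 to 25 nt whose only mismatches lie in the last 2 bases, by member and library, with Wilson 95% intervals as bars. miR-148a-3p lies between 5.88% and 7.55% in all libraries, and miR-152-3p lies at 37.1% or more in both Exo-AT libraries.

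The 3p arm supplied nearly all family counts. It held 95%, 95.5% and 91.9% of miR-148a counts, 97.1%, 100% and 100% of miR-152 counts and 79.3%, 100% and 100% of miR-148b counts in the order Exo-ADSCs2, Exo-AT1 and Exo-AT2. The 5p products for which RefSeq gives a mature sequence are shown with bases 2 to 8 in capitals, which differ from the family's 3p seed and from each other.
miR-148a-5p: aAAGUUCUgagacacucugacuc
miR-152-5p: aGGUUCUGugauacacuccgacu
Of the 18 counts on the 5p side of mir-148a in Exo-ADSCs2, 7 were the 5p product and 11 were tags of 15 or 16 nt from elsewhere in the hairpin, whereas all 4 and all 76 counts in the Exo-AT libraries were the product. miR-148a-5p product tags thus stood at 7, 4 and 76 counts beside 340, 85 and 865 of the 3p form. miR-152-5p had 9 counts in Exo-ADSCs2, 6 of them the product, and 0 in both Exo-AT libraries. With 3 counts over the Exo-AT group as the floor, the miR-152-5p product in TMM-scaled CPM stood 4.98 times above that floor in Exo-ADSCs2. The 6 counts carry no error in this value, so it is not a lower limit of the fold, and no test was run. The factor also depends on the scaling, at 2.99 with totals of named counts, and with all assigned counts the Exo-AT floor lies above the Exo-ADSCs value. miR-148b-5p had 6 counts there, 3 of them the product, and 0 in Exo-AT, too few for a fold.

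The authors' deposited table lists 45 miRNAs as raised in Exo-AT, a choice made on these same samples, and it gives the sole values here for Exo-ADSCs1. miR-148a-3p is in it with normalized reads of 4706 and 1311 in the columns headed Exo-AT1 and Exo-AT2 and 398 and 474 in those headed Exo-ADSCs1 and Exo-ADSCs2, and the authors' fold in the deposited table is 6.77. For miR-148b-3p the authors' deposited table gives 381, 187, 71 and 30 in the same order and a fold of 4.86. Both members lay higher in both Exo-AT columns than in either Exo-ADSCs column of that table. Since its entries were chosen as raised on these same columns, this is no separate support for a rise. By fold they ranked at 32 and 39 of its 45 entries. miR-152 is not among the entries of the authors' deposited table. The table's values for miR-148a-3p and miR-148b-3p in the column headed Exo-AT1 are each 5.44 times the tag count of the file labelled Exo-AT2, close to the 5.52 CPM that 1 count is worth in that library when scaled to all assigned counts. In the column headed Exo-AT2 the value of miR-148b-3p is 62.3 times the count of its commonest tag in the file labelled Exo-AT1, a tag of 3 counts. This is near the 65.8 CPM that 1 count is worth there, while miR-148a-3p is at 25.2 times. In the column headed Exo-ADSCs2 the value of miR-148a-3p is 1.39 times its tag count, near the 1.40 CPM that 1 count is worth in Exo-ADSCs2 on the same scale. These ratios place the columns headed Exo-AT1 and Exo-ADSCs2 on a scale close to all assigned counts for miR-148a-3p, the scaling under which all 4 tested forms were called higher above. For the column headed Exo-AT2 they do so for miR-148b-3p but not for miR-148a-3p, and the column headed Exo-ADSCs1 was not compared with tags.

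The miRNAs whose pattern over the 3 libraries was most like that of each member were named by the Euclidean distance of centred log2 CPM, a description of 3 points that share depth and scaling. Nearest to miR-148a-3p were miR-122-5p (distance 0.116), miR-181d-5p (0.236) and miR-676-3p (0.297), against a median distance of 2.56 over all tested miRNAs, and miR-148b-3p came next at 0.320. For miR-152-3p they were miR-191a-5p (0.141), miR-423-3p (0.150) and miR-101b-3p (0.175), with miR-148a-3p at place 26 of 182 (0.771), against a median distance of 2.49. miR-148b-3p lay nearest to miR-92a-3p (0.0999), miR-28-3p (0.197) and miR-10b-5p (0.220). miR-148a-5p lay nearest to miR-151-3p (0.0692), miR-28-3p (0.163) and miR-106b-3p (0.180). miR-152-3p thus lay farther from miR-148a-3p and miR-148b-3p (0.771 and 0.748) than these lay from each other, though nearer than the median miRNA.

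Other miRNAs known to act on DNA methyltransferase messages did not move in one direction. Of 9 listed forms 6 were tested, of which 2 rose in Exo-AT, 1 fell and 3 did not pass the test, beside 19.1% called in each direction among all miRNAs tested. The median log2 fold change of the 6 was -0.33 against 0.37 for all miRNAs tested. Those that rose were miR-101a-3p (log2 fold change 2.16) and miR-126a-3p (3.40), an endothelial miRNA, and miR-143-3p fell by 0.87 on the log2 scale. miR-29a-3p, of the family best known for repressing the de novo methyltransferases, was at -0.23 (adjusted p = 0.747, edgeR), miR-101b-3p at -0.43 and miR-342-3p at -2.25, and none of these was called. miR-29b-3p, miR-29c-3p and miR-185-5p had 3 to 5 counts in Exo-ADSCs2, 0 in Exo-AT, and were not tested.

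Among 14 miRNAs known to promote adipocyte differentiation, all tested, 5 rose and 6 fell in Exo-AT, beside 19.1% called in each direction among all miRNAs tested. Their median log2 fold change was -0.36 against 0.37 for all. The risers were miR-204-5p (3.42), miR-30d-5p (2.96), miR-26a-5p (2.50), miR-30a-5p (2.17) and miR-181a-5p (0.88). Of these, miR-204-5p (SE 1.27) had 3, 6 and 80 counts in Exo-ADSCs2, Exo-AT1 and Exo-AT2. It thus passed the filter only through the group where it is high, so its rise is no support here. Those that fell were miR-21-5p (-0.97), miR-103-3p (-2.35), miR-107-3p (-2.18), miR-143-3p (-0.87), miR-210-3p (-4.72), a hypoxia-induced miRNA, and miR-378a-3p (-1.59). miR-148a-3p at 0.24 was called in neither direction, as were miR-17-5p, miR-20a-5p and miR-26b-5p of that list.

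Some markers of other cell types differed between the groups beside these values. Of 12 endothelial, erythroid, leukocyte and muscle miRNAs 8 were tested, and 4 rose in Exo-AT (miR-126a-3p, miR-486-5p, miR-150-5p and miR-1b-3p) while 0 fell, beside 19.1% called higher among all miRNAs tested. In Exo-ADSCs2, Exo-AT1 and Exo-AT2, miR-150-5p had 0, 2 and 69 counts and miR-1b-3p had 3, 18 and 177. Both thus passed the filter only through the group where they are high, as did miR-133a-3p (2, 0 and 21). The tally is therefore partly set by the filter and is no support for a rise of such markers. The 4 not called were miR-126a-5p (log2 fold change 1.83), miR-133a-3p (1.74), miR-451-5p (-0.015) and miR-142-5p (-0.12). Erythroid miR-144-3p (4, 0 and 2 counts in Exo-ADSCs2, Exo-AT1 and Exo-AT2) and muscle miR-206-3p (12, 0 and 2) were untested and lower in Exo-AT. miR-486-5p, at 49869 CPM in Exo-ADSCs2, was at 36676 CPM in Exo-AT1 and 153191 CPM in Exo-AT2, so it was called although it was lower in 1 Exo-AT library than in Exo-ADSCs2. The summed level of the 12 was 51786 CPM in Exo-ADSCs2 and 41340 and 161415 CPM in the Exo-AT libraries, most of it miR-486-5p. Of the leukocyte markers, miR-142-3p, miR-150-5p and miR-223-3p were at 0 counts in Exo-ADSCs2, while miR-142-5p had 15 counts there. The part of other cells of the explant in the family's Exo-AT values was not tested.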

How the data were processed

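Per the file headers, the deposited tag files hold whole-number counts for each distinct tag, the hairpin it aligned to and its position. Novoalign 2.07.11 and the rn6 assembly are named per the submitters' processing notes, while trimming and the miRNA reference release are, in the sources used here, not given. The authors' table gives normalized reads (a score here, as its factor is not stated), means and a fold (ratio) for 45 miRNAs. The deposited tag length and position columns, in nt, were also used, and the alignment summary of Exo-ADSCs replicate 1 was not used.

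Tags on named hairpins were given to the 5p or 3p arm by their midpoint, after correcting positions for 5 bases counted before the hairpin, and copies of a miRNA were summed. Predicted hairpins were left out of the main test. The test was edgeR 4.0.16 (R 4.3.3, quasi-likelihood, two-sided) on counts with TMM factors of 0.664, 1.39 and 1.08 (Exo-ADSCs replicate 2, Exo-AT replicate 1, Exo-AT replicate 2). The filter kept miRNAs by a minimum count of 10 and a minimum total of 15. Benjamini-Hochberg adjustment ran over the 183 tested, with calls at 0.05. With 1 Exo-ADSCs library the spread comes from the Exo-AT libraries alone, which leave 1 residual degree of freedom per miRNA. edgeR shares information on that spread over all miRNAs tested, so its SE and p-values do not follow each miRNA's own spread. The SE given for edgeR is the absolute log2 fold change divided by the square root of the F statistic. A count of 0 allows up to 3 counts, or 46.8, 237 and 20.4 TMM-scaled CPM in the same order. Shares carry Wilson 95% intervals and ratios exact Clopper-Pearson intervals. Without molecular identifiers on the reads, these intervals and floors stand for counting error alone.

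Alternatives were other scalings, no filter, tags of 20 to 25 nt, exact tags, tags of 1 miRNA name, DESeq2 1.42.0, limma 3.58.1 and leaving out libraries. The members, lists and tests were chosen with earlier results of these data known. By rule, both arms of each member, the 3 nearest miRNAs per form, the called members and up to 4 abundant others of each list, and the 3 commonest tags per form and library may be named. Further list members that were not called or not tested were also named. The tags with a shifted start or prefix were singled out after their values were seen.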

Additional observations from a re-analysis of the deposited data

How the results depend on the processing

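No paired analysis was possible because the tag-count libraries of the groups share only replicate number 2. Leaving out Exo-ADSCs2 gives no value, since no Exo-ADSCs library remains. The log2 fold change of miR-148a-3p turned to -0.013 with DESeq2's size factors and -0.0058 with DESeq2's test, and was called at 1.14 with totals of named counts, 3.44 with all assigned counts and 1.90 with tags of 20 to 25 nt scaled by totals. Leaving out 1 Exo-AT library gave 0.15 to 0.49. miR-152-3p was called at -0.91 with DESeq2's size factors and -0.94 with exact tags, and turned to 0.23 with totals of named counts, 1.76 with tags of 20 to 25 nt, 2.59 with those tags scaled by totals and 2.56 with all assigned counts. miR-148b-3p turned to -0.10 with tags of 20 to 25 nt and was called at 3.50 with all assigned counts. Called family forms were thus 1 lower with DESeq2's size factors or exact tags, and 1, 4 and 2 higher with totals of named counts, all assigned counts and tags of 20 to 25 nt scaled by totals. Over all miRNAs, the main calls of 35 higher and 35 lower became 23 higher with DESeq2's size factors, 19 lower with totals, 109 higher and 5 lower with all assigned counts, 17 lower with tags of 20 to 25 nt scaled by totals, 22 and 21 with DESeq2's test and 5 and 15 with limma. With predicted hairpins included the counts were 0 and 0 of 401 in edgeR, with 25 at an unadjusted p under 0.05. Where the calls changed, the cause was not tested. With exact tags miR-148b held 2.32% of family counts in Exo-ADSCs2, miR-148a 69.3% and miR-152 26.7% in Exo-AT2. With tags of 20 to 25 nt the shares of miR-148a, miR-148b and miR-152 in Exo-ADSCs2 were 69.8%, 12.3% and 17.9%, and those of miR-148a and miR-152 in Exo-AT2 were 67.6% and 27%. With exact tags, the short share was 73.8% for miR-148a-3p in Exo-ADSCs2 and 34.8% for miR-152-3p in Exo-AT2. Scaling to all assigned counts, predicted hairpins, shares by tags of 20 to 25 nt and those tags scaled by totals were added after the data were seen. Depth limits miR-148b-3p and the 5p forms most, since 5 counts or fewer stand behind each of them in Exo-AT1.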
